A study of Mus musculus with 24 samples.

Results

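Mouse skin was compared 14 days after grafting (dpg) between grafts of CD1dKOxE7 donors and grafts of C57 donors. The samples were chosen by their titles, and they make up 6 of the 24 libraries of the series, with 3 libraries in each group. CD1dKOxE7 grafts were ear skin of K14E7 mice labelled CD1d-/-, placed on C57BL/6 recipients. K14E7 mice carry the E7 oncogene of human papillomavirus 16 behind the keratin 14 promoter, which is active in basal keratinocytes. C57 grafts were ear skin of C57BL/6 mice on C57BL/6 recipients, so that the recipients had the CD1d gene in both groups. E7 grafts of the same day, from K14E7 donors with CD1d, and the CD1dKOxE7 and C57 grafts of 28 dpg are used below only to show where the comparison differs. Whole grafts were frozen and their RNA sequenced, so a library holds epidermis, dermis and the recipient cells that had entered them. Nothing in the labels says that the 3 libraries of a group came from separate donors or recipients, and the p-values measure only the spread between these libraries, which may be technical.

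E7 binds the retinoblastoma protein and its relatives, which otherwise hold E2F transcription factors in check, so that keratinocytes go on copying their DNA while they differentiate. CD1d is an MHC class I-like molecule that shows lipids to NKT (natural killer T) cells, a lymphocyte type with T cell receptors and NK receptors. Grafted skin is rejected when T cells recognise a foreign protein in it, and interferon-gamma from T and NK cells induces antigen presentation and chemokines in the tissue. The comparison addresses how E7 skin without CD1d in its own cells differs from skin with no transgene early after grafting.

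Reads of the transgene fitted the donors. E7 had 20.1, 17.5 and 23.2 CPM (the count of a gene over the total of its library after TMM scaling) in the CD1dKOxE7 grafts, whereas the E7 grafts had 33.6, 40.3 and 38.6 CPM and no C57 graft had a count. It was at least 155-fold higher in CD1dKOxE7 than in C57 grafts, counted from the floor of 3 counts over the C57 group. The CD1dKOxE7 grafts were lower than the E7 grafts in every library (log2 difference -0.90 ± 0.27, adjusted p = 0.0302). Cd1d1, the mouse CD1d gene, had 13.4, 17.2 and 11.2 CPM in CD1dKOxE7 grafts and 16.2, 15.5 and 15.6 CPM in C57 grafts (log2 fold change -0.17 ± 0.31, adjusted p = 0.701). The sources used here do not give which part of Cd1d1 the donors lack, so these reads check nothing about the deletion, and reads of recipient cells would be counted too. Its neighbour Cd1d2 had 1.52, 1.59 and 1.99 CPM against 1.000, 1.45 and 1.64 CPM (log2 fold change 0.30 ± 0.33, adjusted p = 0.504). Keratinocyte, fibroblast and leukocyte genes were read in all 6 libraries. Ptprc (CD45), the common leukocyte antigen, had 367, 394 and 455 CPM in CD1dKOxE7 grafts and 77.5, 75.9 and 105 CPM in C57 grafts.

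CD1dKOxE7 libraries held 7153135 to 11069475 counts and C57 libraries 6787410 to 8736172, so that 3 counts in a library were worth 0.271 to 0.442 CPM of the unscaled total. Such a floor covers counting error only. Mitochondrial genes held 1.877 to 1.966% of the counts in CD1dKOxE7 grafts and 1.495 to 1.859% in C57 grafts. The labels put the CD1dKOxE7 grafts on lane 2 and the C57 and E7 grafts on lane 1 of a flow cell, and donor and lane cannot be told apart. Some libraries stood apart in tissue that need not be skin. CD1dKOxE7 replicate 2 and C57 replicate 2 were high in skeletal muscle genes, C57 replicate 3 was high in cartilage genes, and CD1dKOxE7 replicate 3 was low in hair follicle genes.

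Genes were tested in a single edgeR quasi-likelihood fit of the 18 graft libraries with Benjamini-Hochberg adjustment, and "rose" or "fell" is used for genes with an adjusted p under 0.05. Log2 fold changes are CD1dKOxE7 over C57 and are given ± standard error (SE). Of 16189 genes tested, 3097 (19.1%) rose and 3249 (20.1%) fell in the CD1dKOxE7 grafts, and 1129 of those that rose and 1077 of those that fell changed at least 2-fold. The median of all genes was -0.02. All 3 CD1dKOxE7 libraries lay above all 3 C57 libraries for 24.7% of genes and below them for 27.0%. Gene lists are described below by the count of their tested members that rose or fell and by their median log2 fold change, to be read beside those shares. Against the E7 grafts of that day, 2440 genes (15.1%) were higher and 2388 (14.8%) lower.

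**Figure D1:**
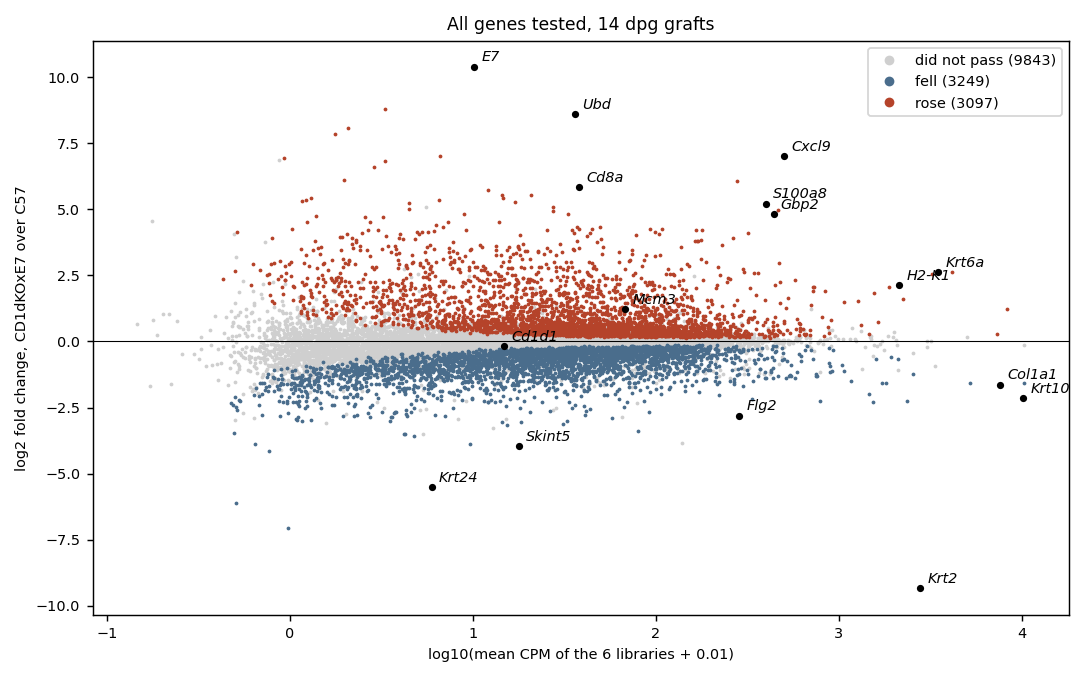
Log2 fold change of CD1dKOxE7 over C57 grafts at 14 dpg for each of the 16189 genes tested, against the mean level of the gene (log10 of CPM plus a small constant), with genes past the threshold coloured by direction. Krt2 lies lowest at -9.34, and Cxcl9 (7.02) and Ubd (8.60) lie among the highest.

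T cell genes were higher in CD1dKOxE7 grafts almost without exception. Of 23 genes of the T cell list 22 rose and none fell, with a median of 2.56. The list summed to 980.3, 959.8 and 1109 CPM in CD1dKOxE7 grafts and to 253.4, 236.6 and 222.6 CPM in C57 grafts. Cd8a, a chain of the CD8 co-receptor of cytotoxic T cells, had 73.0, 67.1 and 83.2 CPM in CD1dKOxE7 grafts, 1.58, 2.07 and 2.07 CPM in the E7 grafts and 2.00, 1.16 and 0.703 CPM in the C57 grafts (log2 fold change 5.84 ± 0.53, adjusted p = 1.9e-06). Each CD1dKOxE7 library stood far above the others of that day, and the E7 and C57 libraries overlapped. The other CD8 chain gene, Cd8b1, rose by 5.52 ± 0.56, and Cd4, the co-receptor of helper T cells, rose by 1.78 ± 0.32 from a higher base (44.4, 41.8 and 53.6 CPM against 8.87, 11.4 and 20.1 CPM). Cd3e, a signalling chain of every T cell receptor, had 21.1, 24.2 and 25.6 CPM against 5.00, 2.89 and 4.69 CPM (log2 fold change 2.48 ± 0.34, adjusted p = 5.1e-05). Among the receptor chains themselves, the alpha constant gene Trac rose by 4.22 ± 0.34 and the beta constant gene Trbc2 by 2.38 ± 0.24. Trdc, the delta constant gene of gamma-delta T cells, did not pass the threshold (11.2, 9.91 and 12.2 CPM against 8.75, 4.77 and 7.50 CPM, log2 fold change 0.65 ± 0.49, adjusted p = 0.312). Icos, a co-stimulatory receptor of activated T cells, had 73.1, 55.9 and 64.5 CPM against 5.00, 5.21 and 6.91 CPM and gave the smallest adjusted p of the list (log2 fold change 3.49 ± 0.19, adjusted p = 1.77e-08). In bulk libraries, more cells of a type and more RNA per cell cannot be told apart.

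Genes of cytotoxic lymphocytes and NK cells rose without exception, 20 of 20 tested, with a median of 3.45. Granzyme B (Gzmb), which kills target cells once perforin lets it in, had 60.1, 43.5 and 56.8 CPM in CD1dKOxE7 grafts, 1.90, 1.85 and 5.28 CPM in the E7 grafts and 1.38, 1.16 and 2.11 CPM in the C57 grafts (log2 fold change 5.08 ± 0.37, adjusted p = 1.79e-07). The CD1dKOxE7 libraries lay far above all the others, and E7 replicate 3 was the highest of those. Gzma, another granzyme, rose by 3.47 ± 0.32 and perforin (Prf1) by 2.77 ± 0.43. Ifng, which encodes interferon-gamma, had 6.83, 6.73 and 12.7 CPM in CD1dKOxE7 grafts and 0.500, 0 and 0.117 CPM in C57 grafts, where 1 library had no read (log2 fold change 5.25 ± 0.67, adjusted p = 2.1e-05). Its transcription factors Tbx21 (T-bet) and Eomes rose by 3.89 ± 0.49 and 3.48 ± 0.47. Klrk1, the activating receptor NKG2D of NK and CD8 T cells, had 46.8, 41.3 and 57.6 CPM against 3.12, 3.33 and 6.91 CPM (log2 fold change 3.42 ± 0.29, adjusted p = 7.69e-07). Ncr1, a receptor restricted to NK and some other innate lymphocytes, rose by 2.83 ± 0.37 to a mean of 9.41 CPM.

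Genes linked to NKT cells gave a mixed picture. Of 10 tested, 7 rose and none fell, but those that rose are shared with T and NK cells. In a fit of the 6 libraries alone with the replicate number as a block, 1 fell. That fit is called the blocked fit of the 6 libraries below. A fall of 1 gene was also found with all 24 libraries in the fit and without CD1dKOxE7 replicate 2. Klrb1c (NK1.1) had 9.49, 11.1 and 12.9 CPM in CD1dKOxE7 grafts against 1.000, 1.16 and 1.88 CPM in C57 grafts (log2 fold change 3.02 ± 0.38, adjusted p = 2.09e-05). Cxcr6, a chemokine receptor of NKT cells and tissue T cells, had 46.5, 34.7 and 52.2 CPM against 7.50, 3.47 and 6.09 CPM (log2 fold change 2.95 ± 0.37, adjusted p = 2.55e-05). Zbtb16, which encodes PLZF, the transcription factor that directs NKT development, did not pass the threshold (1.52, 3.89 and 1.56 CPM against 4.00, 5.64 and 3.52 CPM, log2 fold change -0.86 ± 0.36, adjusted p = 0.0672). Il4, Il17a and Traj18, the joining segment of the invariant NKT receptor, were too low to be tested.

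Inhibitory receptors and regulatory T cell genes were higher as well. In the immune regulatory list 14 of 19 rose and none fell (median 2.25). Pdcd1, the receptor PD-1 of stimulated T cells, had 28.7, 22.3 and 34.4 CPM in CD1dKOxE7 grafts against 0.375, 0.723 and 0.820 CPM in C57 grafts (log2 fold change 5.44 ± 0.54, adjusted p = 3.06e-06). Its ligand Cd274 (PD-L1) had 127, 150.4 and 184 CPM against 16.0, 18.1 and 20.3 CPM (log2 fold change 3.08 ± 0.17, adjusted p = 1.97e-08), with no overlap. Lag3, another inhibitory receptor, had 40.8, 28.9 and 35.6 CPM against 2.75, 3.76 and 3.40 CPM (log2 fold change 3.41 ± 0.24, adjusted p = 1.4e-07). Foxp3, the factor that defines regulatory T cells, rose by 2.30 ± 0.20, Ctla4 by 3.68 ± 0.30 and the interleukin 2 receptor gene Il2ra by 3.54 ± 0.22. Ido1, an enzyme that breaks down tryptophan and restrains T cells, stayed low at 4.08, 2.04 and 4.70 CPM against 0, 0.434 and 0.234 CPM (log2 fold change 3.96 ± 1.17, adjusted p = 0.0149), and without C57 replicate 1 its adjusted p was 0.0585. Arg1, an arginine-degrading enzyme of macrophages, varied widely between CD1dKOxE7 libraries (77.2, 32.2 and 160.2 CPM against 24.1, 22.9 and 41.2 CPM) and did not pass the threshold (log2 fold change 1.60 ± 0.62, adjusted p = 0.0542). Il10 and Nos2 did not pass it either.

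**Figure D2:**
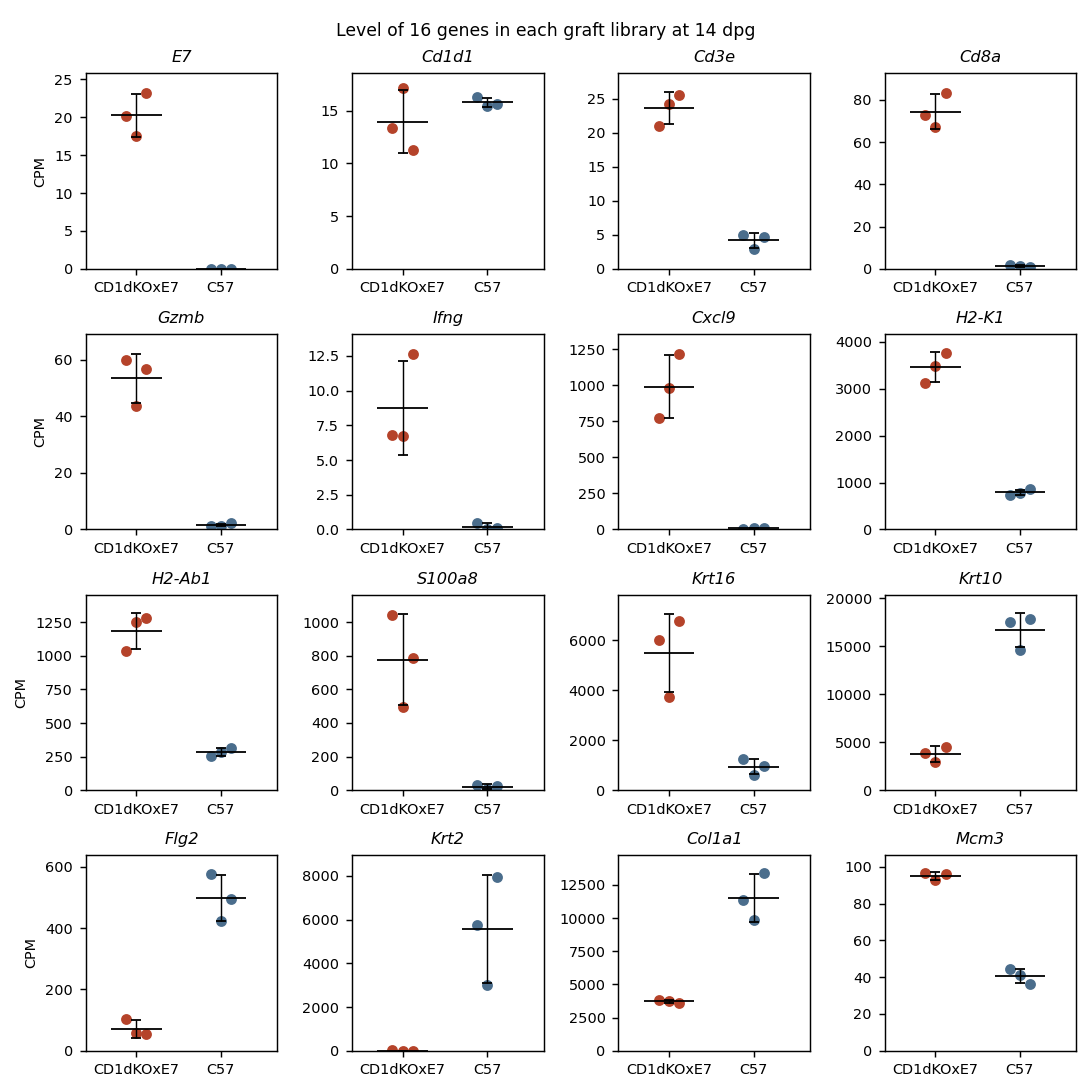
Levels of 16 genes in CPM on linear axes for CD1dKOxE7 and C57 grafts at 14 dpg, with a dot for each library, a line at the mean of 3 libraries and a bar of ± SD. Cd8a and Gzmb stand high in the CD1dKOxE7 grafts and low in the C57 grafts, E7 is at 0 in C57 grafts, and Krt2 is near 0 in CD1dKOxE7 grafts.

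The interferon response was raised across the whole list, with 45 of 45 tested genes higher in CD1dKOxE7 than in C57 grafts and a median of 2.66. Its members summed to 9068, 10330 and 13400 CPM in CD1dKOxE7 grafts and to 989.6, 1502 and 1556 CPM in C57 grafts. Chemokines that draw CXCR3-bearing T cells were among the steepest. Cxcl9 had 777, 980.2 and 1220 CPM in CD1dKOxE7 grafts, 38.5, 42.2 and 63.8 CPM in the E7 grafts and 3.37, 12.9 and 7.03 CPM in the C57 grafts (log2 fold change 7.02 ± 0.66, adjusted p = 3.62e-06), so that each group stood apart from the others. Cxcl10 had 408, 501 and 736 CPM against 5.00, 11.3 and 8.32 CPM (log2 fold change 6.07 ± 0.45, adjusted p = 4.85e-07), and the receptor gene Cxcr3 rose by 2.64 ± 0.42. Among the GTPases that interferon-gamma induces, Gbp2 rose by 4.83 ± 0.43, Igtp by 4.23 ± 0.31 and Iigp1 by 4.12 ± 0.38. The antiviral genes Ifit3 and Rsad2, known from the type I interferon response, rose by 2.15 ± 0.32 and 2.28 ± 0.33. Ifih1, a sensor of double-stranded RNA, and Parp9 had log2 fold changes of 2.24 ± 0.14 and 2.52 ± 0.14, with small errors.

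Many promoters of these genes carried the letters of the interferon-stimulated response element. The motif searched was GAAANNGAAA, on both strands of RefSeq promoters of build GRCm38.p6 that run from 250 bases before to 50 after the gene start. It was found in 21 of 31 interferon list genes with a promoter (67.7%), in 3.89% of the 12241 tested genes with a promoter, in 8.09% of those that rose and in 2.71% of those that fell. A match describes the sequence and does not show binding. A pair of promoters with the motif in capitals is printed, since Cxcl10 was among the steepest rises and Ifit3 stands for the antiviral genes. Cxcl10 lies at chr5:92348840-92349139 on the minus strand and Ifit3 at chr19:34583279-34583578 on the plus strand, both read 5′ to 3′ along the gene.
Cxcl10: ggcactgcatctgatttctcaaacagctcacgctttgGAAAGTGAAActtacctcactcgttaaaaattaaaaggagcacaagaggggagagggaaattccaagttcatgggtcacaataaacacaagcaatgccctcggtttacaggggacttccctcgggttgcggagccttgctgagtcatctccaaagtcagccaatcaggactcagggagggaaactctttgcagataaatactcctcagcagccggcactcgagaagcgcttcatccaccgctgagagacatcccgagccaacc
Ifit3: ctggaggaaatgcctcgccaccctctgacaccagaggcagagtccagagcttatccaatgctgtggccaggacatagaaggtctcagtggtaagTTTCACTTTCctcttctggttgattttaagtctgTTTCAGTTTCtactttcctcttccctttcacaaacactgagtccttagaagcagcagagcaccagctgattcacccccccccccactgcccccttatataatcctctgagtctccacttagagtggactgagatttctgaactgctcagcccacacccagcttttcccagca

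Antigen presentation to CD8 T cells rose in all its tested parts, 17 of 17 genes of the MHC class I list (median 2.25). H2-K1, a classical class I heavy chain, had 3131, 3493 and 3768 CPM in CD1dKOxE7 grafts, 1062, 1181 and 1575 CPM in the E7 grafts and 738, 787 and 853 CPM in the C57 grafts (log2 fold change 2.13 ± 0.14, adjusted p = 6.36e-08). The 3 groups did not overlap, and E7 grafts lay between the others. Tap1, a subunit of the transporter that brings peptides to class I molecules, had 437, 533 and 592 CPM against 79.8, 70.9 and 81.4 CPM (log2 fold change 2.75 ± 0.15, adjusted p = 1.77e-08). Nlrc5, the transactivator of class I genes, had 372, 370.2 and 508 CPM against 81.6, 76.9 and 80.6 CPM (log2 fold change 2.39 ± 0.13, adjusted p = 1.77e-08). The immunoproteasome subunit Psmb9 rose by 3.28 ± 0.23 and B2m, the light chain, by 2.05 ± 0.15. The chaperones of the endoplasmic reticulum Pdia3 (0.30 ± 0.09) and Calr (0.35 ± 0.13) moved least, and each lost its call in at least 1 fit that left out a library. H2-Q6 and H2-Q7 are near-identical, so their counts are uncertain.

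MHC class II genes, which present to CD4 T cells, rose in 14 of 14 cases (median 1.81). H2-Ab1 had 1033, 1249 and 1279 CPM in CD1dKOxE7 grafts, 187, 281 and 336 CPM in the E7 grafts and 252, 283 and 310.4 CPM in the C57 grafts (log2 fold change 2.08 ± 0.21, adjusted p = 3.06e-06). E7 and C57 grafts overlapped, and every CD1dKOxE7 library was above them all. H2-Aa and H2-Eb1 had the same pattern (1.90 ± 0.21 and 2.05 ± 0.22). Ciita, the transactivator of class II, rose by 2.06 ± 0.23 and the invariant chain gene Cd74 by 1.84 ± 0.23. The co-stimulatory receptor gene Cd40 rose most, by 2.99 ± 0.35, and the co-stimulatory ligands Cd86 and Cd80 by 1.51 ± 0.18 and 1.15 ± 0.25.

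Dendritic cell genes were higher, while the Langerhans cell gene Cd207 was lower. Of 16 tested 9 rose and 2 fell (median 1.10). Irf8, needed by conventional type 1 and plasmacytoid dendritic cells, had 91.8, 106 and 105 CPM in CD1dKOxE7 grafts and 16.8, 19.2 and 22.7 CPM in C57 grafts (log2 fold change 2.37 ± 0.22, adjusted p = 2.13e-06). Ccr7, which guides mature dendritic cells and some T cells to lymph nodes, had 36.3, 44.9 and 53.2 CPM against 5.87, 6.80 and 6.68 CPM (log2 fold change 2.79 ± 0.31, adjusted p = 7.25e-06). Xcr1 and Clec9a, surface markers of type 1 dendritic cells, rose by 1.54 ± 0.23 and 1.40 ± 0.34, and Siglech, a plasmacytoid marker, by 3.18 ± 0.47. Cd207 (langerin), a lectin of Langerhans cells in the epidermis, fell to 4.27, 3.89 and 4.55 CPM in CD1dKOxE7 grafts, against 12.6, 8.68 and 10.1 CPM in C57 grafts (log2 fold change -1.31 ± 0.26, adjusted p = 0.00104). The other gene of the list that fell was Mfge8, which many cell types make (-0.93 ± 0.22).

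In the macrophage and monocyte list, 7 of 24 rose and 4 fell (median 0.28), against 3 that rose without C57 replicate 1 or 2, 4 without CD1dKOxE7 replicate 3, and 2 that fell without C57 replicate 3 or CD1dKOxE7 replicate 1 or 3. With all 24 libraries in the fit 7 fell. The genes named here are single members and stand for no part of the list. Ly6c2, a surface protein of inflammatory monocytes, had 73.3, 98.6 and 109 CPM in CD1dKOxE7 grafts against 4.75, 9.11 and 5.27 CPM in C57 grafts (log2 fold change 3.89 ± 0.29, adjusted p = 2.53e-07). Ccr2, the receptor that brings monocytes out of the marrow and into tissue, had 165, 204 and 188 CPM against 66.7, 48.6 and 83.7 CPM (log2 fold change 1.48 ± 0.24, adjusted p = 0.000243), and its ligand gene Ccl2 48.0, 101 and 93.2 CPM against 13.6, 6.07 and 13.7 CPM (log2 fold change 2.84 ± 0.41, adjusted p = 9.57e-05). Adgre1 (F4/80), the common macrophage marker, had 84.5, 111 and 106 CPM against 79.1, 79.8 and 117 CPM and did not pass the threshold (log2 fold change 0.12 ± 0.27, adjusted p = 0.751). Apoe fell to 1614, 1708 and 1279 CPM in CD1dKOxE7 grafts, against 2170, 2371 and 2357 CPM in C57 grafts (log2 fold change -0.58 ± 0.13, adjusted p = 0.00268), and Mertk, a receptor with which macrophages take up dead cells, fell by 0.70 ± 0.17 on the log2 scale. Mrc1 and Folr2, of resident macrophages, had log2 fold changes of -1.05 ± 0.44 and -1.34 ± 0.58 and did not pass it.

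Neutrophil genes rose in 7 of 15 cases with none that fell (median 1.11), but 4 rose without C57 replicate 1 or CD1dKOxE7 replicate 1. Ltf, Trem1 and Cxcl1 lost their calls in each of these fits. The 4 that kept them were Csf3r and S100a8, S100a9 and Stfa2, which the list shares with keratinocytes. Csf3r, the receptor for the growth factor of neutrophils, had 57.8, 65.4 and 77.1 CPM in CD1dKOxE7 grafts and 24.5, 17.8 and 34.1 CPM in C57 grafts (log2 fold change 1.38 ± 0.23, adjusted p = 0.000306). Cxcr2, the chemokine receptor of neutrophils, did not pass the threshold (log2 fold change 0.52 ± 0.32, adjusted p = 0.214), and the granule and surface genes Ly6g, Ngp and Camp were too low to be tested. Mast cell genes were split, with 3 of 14 that rose and 4 that fell (median -0.05, above 0 without C57 replicate 3). Cpa3, a mast cell protease, fell to 17.3, 17.0 and 13.1 CPM in CD1dKOxE7 grafts, against 35.4, 32.2 and 50.4 CPM in C57 grafts (log2 fold change -1.31 ± 0.32, adjusted p = 0.00548), and Mrgprb2, a receptor of connective tissue mast cells, fell by 1.65 ± 0.37 on the log2 scale. Tpsab1, another mast cell protease, rose by 2.15 ± 0.51 to a mean of only 1.95 CPM. B and plasma cell genes summed to 850.4, 641.1 and 664.3 CPM in CD1dKOxE7 grafts and 626.8, 585.9 and 577.4 CPM in C57 grafts. All 3 CD1dKOxE7 libraries lay above all 3 C57 libraries for 10 of 12 tested genes (median 1.29), against 24.7% over all genes. Mzb1 alone of 12 rose (log2 fold change 2.71 ± 0.99, adjusted p = 0.0395), and it lost its call without each of C57 replicates 1, 2 and 3 and CD1dKOxE7 replicates 1 and 3. Of the same 12 genes 4 rose in the blocked fit of the 6 libraries and 4 with DESeq2.

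In the IL-17, IL-1 and acute inflammation list 10 of 17 rose and 1 fell (median 1.69). Il1b had 93.3, 55.4 and 75.7 CPM in CD1dKOxE7 grafts and 5.75, 5.35 and 28.8 CPM in C57 grafts (log2 fold change 2.47 ± 0.61, adjusted p = 0.00561), and Il1rn, the gene of its natural antagonist, 250.0, 182 and 224 CPM against 88.1, 78.7 and 100.3 CPM (log2 fold change 1.30 ± 0.13, adjusted p = 3.06e-06). Tnf had 19.0, 26.4 and 28.3 CPM against 4.87, 3.62 and 7.73 CPM (log2 fold change 2.16 ± 0.27, adjusted p = 1.89e-05), with no overlap. Il19 and Il24, which signal through the IL-20 receptors of keratinocytes, had 18.2, 6.37 and 13.8 CPM against 0.375, 0.145 and 0.351 CPM (log2 fold change 5.35 ± 0.67, adjusted p = 2.13e-05) and 9.49, 1.59 and 5.98 CPM against 0, 0.145 and 0 CPM. Lcn2, an iron-binding defence protein of epithelia and neutrophils, rose by 4.83 ± 0.65. Il18, stored in keratinocytes, was the member that fell, to 38.9, 46.2 and 49.0 CPM in CD1dKOxE7 grafts against 73.7, 63.3 and 77.9 CPM in C57 grafts (log2 fold change -0.68 ± 0.15, adjusted p = 0.00247).

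Of 16 genes of the type 2 cytokine axis 9 rose and 2 fell (median 0.87). Ccl22, a ligand of CCR4 made by dendritic cells, had 24.8, 38.5 and 32.9 CPM in CD1dKOxE7 grafts and 9.50, 9.40 and 10.4 CPM in C57 grafts (log2 fold change 1.71 ± 0.23, adjusted p = 3.32e-05). Ccl11 (eotaxin) had 41.5, 35.0 and 45.0 CPM against 13.5, 13.7 and 26.2 CPM (log2 fold change 1.17 ± 0.29, adjusted p = 0.00479). Il13ra1, a receptor chain for interleukin 13, rose by 0.50 ± 0.10, and Il4 and Il5 themselves were too low to be tested. Il13 rose, but it lost its call without C57 replicate 1, C57 replicate 2 or CD1dKOxE7 replicate 3. The 2 that fell were Gata3 (-0.47 ± 0.16) and Tslp (-1.07 ± 0.37), and both lost their calls without CD1dKOxE7 replicate 1 and without replicate 3. Among other chemokines and receptors 12 of 25 rose and none fell (median 0.96). Cxcl16, the ligand of CXCR6, had 196, 211 and 246 CPM against 50.4, 47.1 and 52.0 CPM (log2 fold change 2.12 ± 0.15, adjusted p = 1.75e-07). Ccl4, a chemokine made by T cells and macrophages, had 15.5, 17.5 and 21.1 CPM against 2.37, 2.02 and 3.16 CPM (log2 fold change 2.81 ± 0.36, adjusted p = 2.31e-05). Cxcl14 and Ccl27a, chemokines that resting keratinocytes make, did not pass the threshold (-0.46 ± 0.29 and 0.06 ± 0.33).

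Endothelial genes did not move as a body, and the adhesion molecules that catch leukocytes rose. Of 21 tested 5 rose and 2 fell (median -0.20), and 1 fell in 5 of the 6 fits that left out a library, but 4 in the blocked fit of the 6 libraries. Sele (E-selectin) had 31.2, 18.4 and 21.3 CPM in CD1dKOxE7 grafts and 4.50, 5.93 and 3.75 CPM in C57 grafts (log2 fold change 2.33 ± 0.40, adjusted p = 0.000317), and Icam1 134, 173 and 192 CPM against 45.9, 46.1 and 54.7 CPM (log2 fold change 1.76 ± 0.19, adjusted p = 6.14e-06). Vcam1 rose by 1.17 ± 0.30. The structural endothelial genes Pecam1 and Cdh5 did not pass the threshold (-0.01 ± 0.19 and -0.58 ± 0.23). Complement genes were divided, with 2 of 16 that rose and 2 that fell (median -0.18), and 5 that fell without CD1dKOxE7 replicate 2 but 1 without C57 replicate 1 and in the blocked fit of the 6 libraries. C2, which works in the classical pathway, had 71.8, 102 and 96.3 CPM against 37.5, 41.8 and 51.9 CPM (log2 fold change 1.04 ± 0.17, adjusted p = 0.000195).

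**Figure D3:**
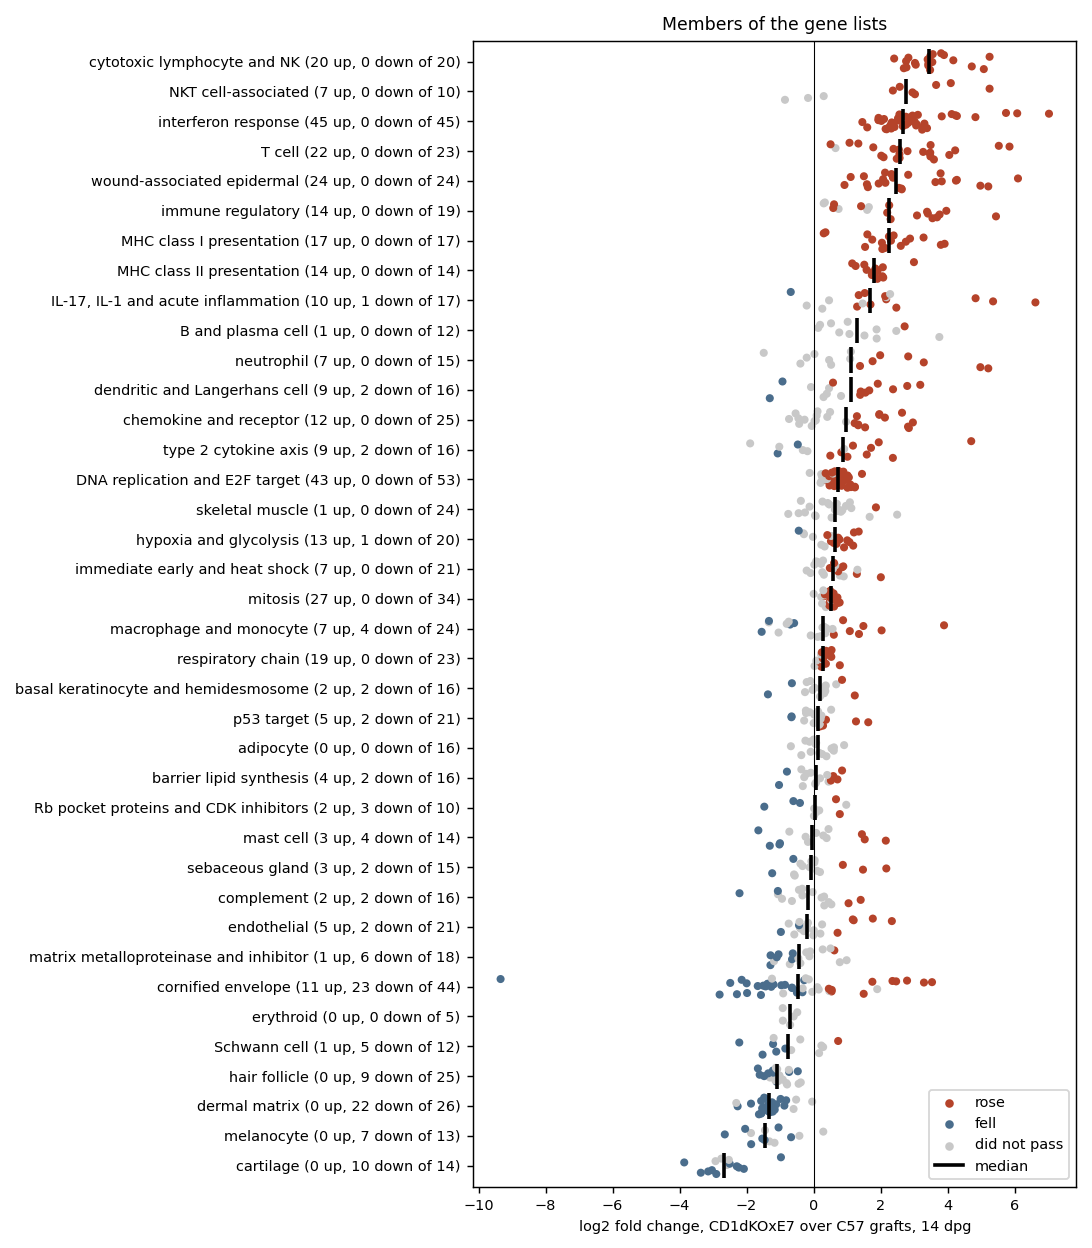
Log2 fold change of CD1dKOxE7 over C57 grafts at 14 dpg for each tested member of each gene list, coloured by whether it rose, fell or did not pass the threshold, with a black mark at the median of the list. All members of the interferon, MHC class I, MHC class II, cytotoxic and wound lists lie above 0, and those of the dermal matrix list lie below it.

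Epidermal genes that wounding is known to induce were higher. All 24 tested genes of the wound-associated list rose, with a median of 2.45. Krt16, a keratin of wounded and thickened epidermis, had 5994, 3725 and 6753 CPM in CD1dKOxE7 grafts, 4099, 3348 and 3557 CPM in the E7 grafts and 1239, 618 and 966 CPM in the C57 grafts (log2 fold change 2.54 ± 0.30, adjusted p = 1.15e-05). Krt6a and Krt6b, its partners, rose by 2.63 ± 0.40 and 2.62 ± 0.48. The alarmin genes S100a8 and S100a9 rose most among abundant members. S100a8 had 1040, 498 and 788 CPM in CD1dKOxE7 grafts, 44.7, 116 and 14.3 CPM in E7 grafts, where it was uneven, and 32.6, 5.50 and 24.02 CPM in C57 grafts (log2 fold change 5.21 ± 0.77, adjusted p = 0.000144). Serpinb3a, a protease inhibitor of the upper epidermis, rose by 3.79 ± 0.64, and Hbegf, a growth factor for keratinocytes, by 2.13 ± 0.34. Sprr2 and Stfa genes rose too, but their near-identical copies make the counts of single members uncertain.

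The cornified envelope genes split by kind. Of 44 tested 11 rose and 23 fell (median -0.48). All 11 Lce1 genes of the normal horny layer fell (median -1.38), all 6 Lce3 genes, which are induced in wounds and psoriasis, rose (median 2.62), and of the other 27 genes 5 rose and 12 fell. Lce1c fell to 51.7, 85.5 and 70.6 CPM in CD1dKOxE7 grafts, against 223, 206 and 233 CPM in C57 grafts (log2 fold change -1.67 ± 0.17, adjusted p = 4.15e-06). Lce3b had 54.6, 75.8 and 79.2 CPM against 4.87, 4.19 and 8.79 CPM (log2 fold change 3.53 ± 0.61, adjusted p = 0.000453). The Lce genes are similar to each other, so reads may be shared within each kind. Flg2, a filaggrin relative that holds corneocytes together, fell to 103, 56.4 and 53.5 CPM in CD1dKOxE7 grafts, against 575, 423 and 496 CPM in C57 grafts (log2 fold change -2.81 ± 0.20, adjusted p = 1.88e-07). Filaggrin itself (Flg, log2 fold change -1.57 ± 0.26), hornerin (Hrnr, -2.29 ± 0.27) and loricrin (Lor, -1.99 ± 0.23), which build the horny layer, fell too. Krt10, the keratin of the spinous layer, fell to 3890, 2910 and 4469 CPM in CD1dKOxE7 grafts, against 17560, 14610 and 17810 CPM in C57 grafts, while its partner Krt1 had 9746, 7896 and 11770 CPM against 11460, 11080 and 9994 CPM and did not pass the threshold. Among proteases of the horny layer Klk7 rose by 0.54 ± 0.10.

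Krt2 fell furthest of all named genes. This keratin of the uppermost living layers, abundant in ear skin, had 12.2, 6.99 and 6.12 CPM in CD1dKOxE7 grafts, 921, 847 and 1640 CPM in the E7 grafts and 5746, 2997 and 7945 CPM in the C57 grafts (log2 fold change -9.34 ± 1.25, adjusted p = 5.98e-05). The 3 groups did not overlap, and the CD1dKOxE7 grafts were also lower than the E7 grafts (log2 difference -7.05 ± 1.15, adjusted p = 0.000404).

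**Figure D4:**
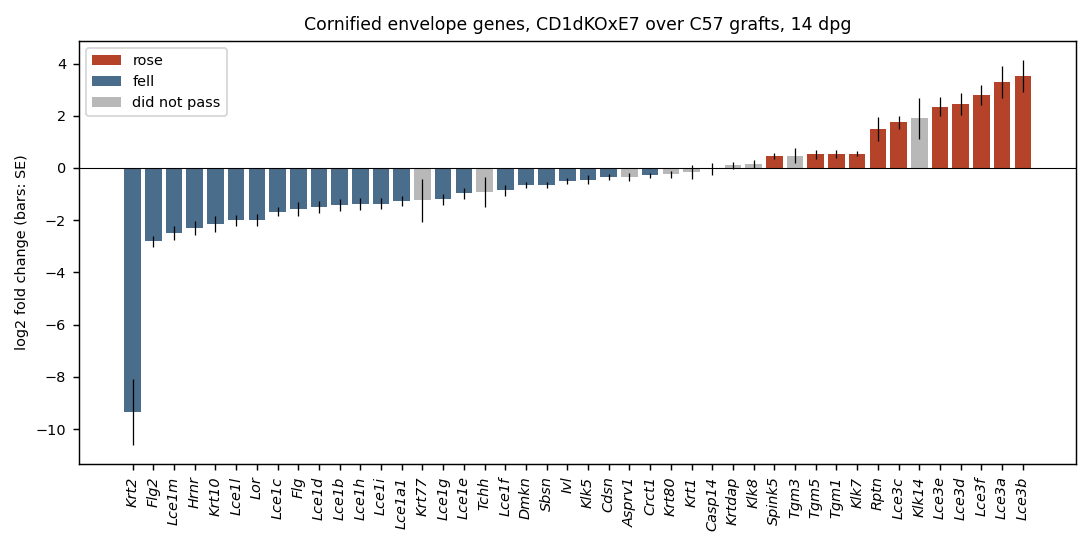
Log2 fold change ± SE of CD1dKOxE7 over C57 grafts at 14 dpg for the cornified envelope genes, in order of their log2 fold change. Bars are coloured by whether the gene rose, fell or did not pass the threshold. The bars of the 11 Lce1 genes lie below 0, those of the 6 Lce3 genes above 0, and Krt2 reaches -9.34.

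Basal keratinocyte genes changed little, with 2 of 16 that rose and 2 that fell (median 0.20). Without CD1dKOxE7 replicate 2, 7 rose, in the blocked fit of the 6 libraries 5, and without replicate 1, 4 fell. Krt14, whose promoter drives the transgene, had 13040, 8256 and 13770 CPM in CD1dKOxE7 grafts and 6141, 3941 and 4910 CPM in C57 grafts (log2 fold change 1.23 ± 0.19, adjusted p = 0.000144), while its partner Krt5 did not pass the threshold (6059, 4287 and 5596 CPM against 5399, 4147 and 4444 CPM, log2 fold change 0.19 ± 0.14, adjusted p = 0.291). Krt15, a keratin of resting basal cells and of the hair follicle bulge, fell to 206, 238 and 219 CPM in CD1dKOxE7 grafts, against 567, 637 and 503 CPM in C57 grafts (log2 fold change -1.37 ± 0.25, adjusted p = 0.000686). Dst, a linker of hemidesmosomes, fell by 0.65 ± 0.08 on the log2 scale, and the adhesion receptor gene Cd44 rose by 0.85 ± 0.12. Genes of barrier lipid synthesis showed 4 of 16 that rose and 2 that fell (median 0.05, below 0 without CD1dKOxE7 replicate 1), and 2 rose without C57 replicate 2. Ugcg, which makes glucosylceramide, had 206, 215 and 234 CPM against 137, 129 and 136 CPM (log2 fold change 0.71 ± 0.07, adjusted p = 2.31e-06). Aloxe3, a lipoxygenase of the barrier, fell to 43.6, 36.5 and 44.4 CPM in CD1dKOxE7 grafts, against 89.7, 80.3 and 84.6 CPM in C57 grafts (log2 fold change -1.03 ± 0.17, adjusted p = 0.000262).

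In the hair follicle list 9 of 25 fell and none rose (median -1.09), but the libraries were uneven. With a library left out 2 to 11 fell (5 without C57 replicate 1, 3 without C57 replicate 2 and 2 without CD1dKOxE7 replicate 3), with all 24 libraries in the fit 15, and in the blocked fit of the 6 libraries 21. The list summed to 6580, 5288 and 2474 CPM in CD1dKOxE7 grafts and 11100, 12500 and 7667 CPM in C57 grafts, lower in CD1dKOxE7 grafts for each replicate number and with no overlap. Cd34, of follicle stem cells and also of vessels and fibroblasts, fell to 94.2, 129 and 97.3 CPM in CD1dKOxE7 grafts, against 216, 202 and 273 CPM in C57 grafts (log2 fold change -1.11 ± 0.21, adjusted p = 0.000829), and Dlx3, a factor of the hair matrix and the upper epidermis, fell by 1.22 ± 0.26 on the log2 scale. Melanocyte genes fell in 7 of 13 cases (median -1.45), and in 2 without C57 replicate 2, which was high in them, or without CD1dKOxE7 replicate 3, and in 4 in the blocked fit of the 6 libraries. Slc45a2, a transporter of pigment granules, fell to 1.33, 0.708 and 0.996 CPM in CD1dKOxE7 grafts, against 5.50, 9.69 and 4.22 CPM in C57 grafts (log2 fold change -2.65 ± 0.64, adjusted p = 0.00439). Among 15 sebaceous gland genes 3 rose and 2 fell (median -0.07, above 0 without CD1dKOxE7 replicate 1 or 3), and 1 fell without C57 replicate 1 or CD1dKOxE7 replicate 3, but 4 in the blocked fit of the 6 libraries. Dgat2l6, an acyltransferase of the gland, had 20.8, 34.8 and 20.2 CPM against 7.25, 5.50 and 4.22 CPM (log2 fold change 2.17 ± 0.53, adjusted p = 0.00526), and Acsbg1, which activates long fatty acids, fell by 0.61 ± 0.14 on the log2 scale.

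The dermal matrix was lower in CD1dKOxE7 grafts, with 22 of 26 genes that fell and none that rose (median -1.34). Its genes summed to 20890, 22670 and 19170 CPM in CD1dKOxE7 grafts and 55830, 46250 and 69120 CPM in C57 grafts. Col1a1, a chain of the main collagen of the dermis, fell to 3834, 3724 and 3590 CPM in CD1dKOxE7 grafts, against 11360, 9821 and 13410 CPM in C57 grafts (log2 fold change -1.63 ± 0.25, adjusted p = 0.000119). Col3a1 (log2 fold change -1.56 ± 0.30), elastin (Eln, -2.27 ± 0.51) and Lox, which cross-links both kinds of fibre (-1.46 ± 0.33), fell as well. Sparc, a collagen-binding protein, fell to 875, 1027 and 829 CPM in CD1dKOxE7 grafts, against 2703, 2116 and 3274 CPM in C57 grafts (log2 fold change -1.57 ± 0.27, adjusted p = 0.000404). Pdgfrb, a receptor of pericytes and fibroblasts, fell by 0.99 ± 0.13, whereas the fibroblast receptor gene Pdgfra (-0.52 ± 0.24) and tenascin C (Tnc, -0.05 ± 0.25) did not pass the threshold. Leukocyte and wound-associated genes took a larger share of the counts in the same libraries, and the part of this in the lower dermal share was not tested. Among matrix proteases and inhibitors 1 of 18 rose and 6 fell (median -0.43). The inhibitor gene Timp2 fell to 302, 385 and 263 CPM in CD1dKOxE7 grafts, against 686, 618 and 1017 CPM in C57 grafts (log2 fold change -1.29 ± 0.19, adjusted p = 9.57e-05), and Plau (urokinase) had 116, 111 and 139 CPM against 82.5, 60.9 and 94.8 CPM (log2 fold change 0.62 ± 0.16, adjusted p = 0.00772). The list's rising count was 2 without CD1dKOxE7 replicate 2.

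Tissues that come with ear skin varied between libraries of the same group. Cartilage genes fell in 10 of 14 cases (median -2.67), in 4 without C57 replicate 1, 2 without C57 replicate 3, 2, 3 and 4 without CD1dKOxE7 replicates 1, 2 and 3, and in 4 with the replicate number as a block in the fit of all grafts. With the 6 libraries alone 14 fell, and 13 with the block as well. They summed to 51.06, 136.7 and 150.7 CPM in CD1dKOxE7 grafts and 583.1, 376.7 and 1122 CPM in C57 grafts, with no overlap. Skeletal muscle genes summed to 1648, 3481 and 960.9 CPM in CD1dKOxE7 grafts and 764.2, 2283 and 681.8 CPM in C57 grafts. Both groups overlapped, and the sum was higher in CD1dKOxE7 grafts for each replicate number. Pvalb alone of 24 passed the threshold (log2 fold change 1.86 ± 0.69, adjusted p = 0.046), and it lost its call under the block in the fit of all grafts (adjusted p = 0.0647) and in 4 fits that left out a library. The count that rose was 14 of 24 in the blocked fit of the 6 libraries and 5 without C57 replicate 2. No adipocyte gene of 16 passed (median 0.12, below 0 without CD1dKOxE7 replicate 2), and no erythroid gene of 5 (median -0.70). Among 12 Schwann cell genes 5 fell and 1 rose (median -0.76). S100b, a calcium-binding protein of glia, fell to 1.42, 4.25 and 3.56 CPM in CD1dKOxE7 grafts, against 12.4, 12.0 and 18.4 CPM in C57 grafts (log2 fold change -2.22 ± 0.52, adjusted p = 0.00379). The glial cadherin gene Cdh19 (log2 fold change -1.21 ± 0.23) and the myelin gene Pmp22 (-1.12 ± 0.21) fell too. Egr2, which is also an immediate early gene, rose (0.73 ± 0.23), and it lost its call without C57 replicate 3 and CD1dKOxE7 replicates 2 and 3. In the sex-linked list Xist alone was tested, and it did not pass the threshold (log2 fold change -0.11 ± 0.11, adjusted p = 0.442).

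Cell cycle genes, the textbook outcome of E7, were higher in CD1dKOxE7 than in C57 grafts by modest factors. Among the 53 genes of the DNA replication and E2F target list 43 rose and none fell (median 0.72). Of 34 mitosis genes 27 rose and none fell (median 0.52). With a library left out, 37 to 40 replication genes and 18 to 24 mitosis genes rose. Mcm3, a subunit of the replicative helicase, had 96.5, 92.8 and 96.2 CPM in CD1dKOxE7 grafts, 131, 141 and 132 CPM in the E7 grafts and 44.2, 41.2 and 36.4 CPM in the C57 grafts (log2 fold change 1.23 ± 0.12, adjusted p = 1.43e-06). The 3 groups did not overlap, with E7 grafts highest. Mcm4 rose by 1.11 ± 0.11, Gins1, of the same helicase complex, by 1.09 ± 0.13, and cyclin E1 (Ccne1), which starts S phase, by 1.44 ± 0.25. Among mitosis genes Birc5 (survivin) had 38.3, 44.7 and 43.4 CPM against 26.5, 27.2 and 26.2 CPM (log2 fold change 0.66 ± 0.09, adjusted p = 3.52e-05), and Incenp and Bub1b, of the chromosomal passenger complex and the spindle checkpoint, rose by 0.59 ± 0.11 and 0.54 ± 0.10. Mki67, the common marker of cycling cells, did not pass the threshold (349.5, 329 and 381 CPM against 289.9, 299 and 236 CPM, log2 fold change 0.36 ± 0.16, adjusted p = 0.0795). It was lower than in E7 grafts (log2 difference -0.83 ± 0.16, adjusted p = 0.000942), as were 39 of the 53 replication genes and 18 of the 34 mitosis genes.

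The promoters of the lists held the known letters of their regulators. An E2F site (TTTCCCGC, TTTGGCGC, TTTCGCGC or TTTGCCGC, both strands) was found in 19 of 43 replication list promoters (44.2%) and in 4.19% of all tested genes with one. The cell cycle homology region (TTTGAA, both strands), a short element of mitosis genes, was found in 20 of 27 mitosis list promoters (74.1%) and in 15.1% of all. No promoter held the E2F letters and the TTTGAA letters in overlap, and the response element above overlapped with the E2F letters in 2 and with TTTGAA in 7 of 15483 promoters. Mcm3 and Ccnb2 are shown as an example of each, from RefSeq promoters of GRCm38.p6, with the matches in capitals. Mcm3 lies at chr1:20820263-20820562 and Ccnb2, a mitotic cyclin that rose by 0.59 ± 0.13, at chr9:70421505-70421804, both on the minus strand and read 5′ to 3′ along the gene.
Mcm3: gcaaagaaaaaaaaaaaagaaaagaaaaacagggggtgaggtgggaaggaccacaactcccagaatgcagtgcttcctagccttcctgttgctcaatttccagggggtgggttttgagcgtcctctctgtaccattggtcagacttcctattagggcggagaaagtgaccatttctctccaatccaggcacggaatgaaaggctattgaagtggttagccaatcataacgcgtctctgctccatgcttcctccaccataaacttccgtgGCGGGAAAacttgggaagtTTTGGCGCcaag
Ccnb2: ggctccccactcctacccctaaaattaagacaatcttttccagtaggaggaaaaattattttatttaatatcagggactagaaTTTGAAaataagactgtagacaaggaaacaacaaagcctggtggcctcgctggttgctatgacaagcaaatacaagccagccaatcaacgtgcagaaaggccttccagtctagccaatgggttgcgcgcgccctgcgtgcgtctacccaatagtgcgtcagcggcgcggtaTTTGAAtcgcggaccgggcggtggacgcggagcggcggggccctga

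Cell cycle inhibitors moved in both directions. In the list of Rb pocket proteins and CDK inhibitors 2 of 10 rose and 3 fell (median 0.04), and 1 fell without C57 replicate 1 or CD1dKOxE7 replicate 3. Rbl1 (p107), an E2F target itself, had 64.7, 65.7 and 75.3 CPM in CD1dKOxE7 grafts and 41.1, 41.4 and 37.3 CPM in C57 grafts (log2 fold change 0.78 ± 0.11, adjusted p = 3.98e-05). Cdkn1c (p57) fell to 12.2, 20.9 and 10.5 CPM in CD1dKOxE7 grafts, against 28.2, 39.9 and 54.6 CPM in C57 grafts (log2 fold change -1.47 ± 0.39, adjusted p = 0.00865). Cdkn2a, whose product p16 builds up in cells with inactive Rb, did not pass the threshold (2.85, 2.83 and 2.99 CPM against 1.88, 1.88 and 0.703 CPM, log2 fold change 0.97 ± 0.42, adjusted p = 0.0809). Of 21 p53 target genes 5 rose and 2 fell (median 0.13), and 2 rose without C57 replicate 1 or 3 or CD1dKOxE7 replicate 3, and 3 under the replicate block or without CD1dKOxE7 replicate 2. Pmaip1 (Noxa), a death gene that interferon also induces, had 40.4, 43.1 and 63.0 CPM against 16.0, 14.5 and 16.6 CPM (log2 fold change 1.63 ± 0.23, adjusted p = 5.48e-05), and the death receptor gene Fas 16.0, 28.6 and 24.5 CPM against 8.87, 6.94 and 12.8 CPM (log2 fold change 1.26 ± 0.21, adjusted p = 0.000284). Zmat3 (log2 fold change -0.66 ± 0.08) and Sesn1 (-0.66 ± 0.14) fell.

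Glycolysis genes rose in 13 of 20 cases with 1 that fell (median 0.63), and respiratory chain genes rose in 19 of 23 by small factors (median 0.27), and in 12 in the blocked fit of the 6 libraries. Ldha, which makes lactate, had 483, 479 and 523 CPM in CD1dKOxE7 grafts and 317, 273 and 304 CPM in C57 grafts (log2 fold change 0.73 ± 0.09, adjusted p = 1.18e-05), and Slc2a1, the main glucose transporter of keratinocytes, rose by 1.18 ± 0.22. Hif1a, the hypoxia factor, rose by 0.91 ± 0.16. Vegfa, Car9 and Adm were among the 6 members of the list that did not pass the threshold. P4ha1 was the member that fell (-0.45 ± 0.15), and it lost its call in 4 of the 6 fits that left out a library. Uqcrfs1, of the respiratory chain, rose by 0.53 ± 0.08 and Ndufa4 by 0.78 ± 0.11. Among immediate early and heat shock genes 7 of 21 rose and none fell (median 0.57), and 4 rose without CD1dKOxE7 replicate 1. Junb had 288.9, 244 and 285.9 CPM against 112, 116 and 108 CPM (log2 fold change 1.29 ± 0.17, adjusted p = 3.03e-05) and the chaperone gene Hspa8 rose by 0.61 ± 0.12, while the heat shock genes Hspa1a and Hspa1b did not pass the threshold.

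Several of the largest changes lay outside the lists, while Defb3 and Hapln1 below belong to the wound-associated and the cartilage list. Ubd (FAT10), a ubiquitin-like protein induced by interferon-gamma and Tnf, had 51.7, 66.4 and 97.9 CPM in CD1dKOxE7 grafts, 0.632, 0.654 and 1.03 CPM in the E7 grafts and 0.125, 0 and 0.351 CPM in the C57 grafts (log2 fold change 8.60 ± 1.10, adjusted p = 4.06e-05). Trbv12-2, a variable segment of the T cell receptor beta chain, had 7.02, 6.20 and 6.54 CPM in CD1dKOxE7 grafts and no count in C57 grafts, at least 51.5-fold. Il21, a cytokine of helper T cells, had 2.09, 3.72 and 4.70 CPM in CD1dKOxE7 grafts and no count in C57 grafts, at least 26.3-fold, and its adjusted p was 0.178 with DESeq2. Ccnb1ip1, a gene of meiotic crossing-over, had 4.37, 1.86 and 6.12 CPM and Tmprss3, a membrane protease, 2.09, 1.42 and 1.99 CPM in CD1dKOxE7 grafts, with no count of either in C57 grafts (at least 29.8-fold and 14.1-fold). Ankk1, a kinase gene, had 12.4, 13.6 and 13.1 CPM against 0.250, 0 and 0 CPM, and the beta-defensin gene Defb3 5.88, 3.19 and 2.56 CPM against 0.125, 0 and 0 CPM. Among the falls, Krt24 fell to 0.380, 0.177 and 0.142 CPM in CD1dKOxE7 grafts, against 13.2, 10.8 and 10.9 CPM in C57 grafts (log2 fold change -5.51 ± 0.85, adjusted p = 0.00019). Skint5, of a family of epidermal immunoglobulin-like proteins, fell to 4.18, 1.15 and 0.854 CPM in CD1dKOxE7 grafts, against 44.5, 19.8 and 36.1 CPM in C57 grafts (log2 fold change -3.95 ± 0.46, adjusted p = 1.59e-05). The secretoglobin gene Scgb1b27 had no count in CD1dKOxE7 grafts and 2.12, 0.868 and 2.81 CPM in C57 grafts, at least 19.3-fold lower. Adh6a, an alcohol dehydrogenase gene (log2 fold change -3.58 ± 0.51), and Rnf112 (-3.49 ± 0.38) fell too. Phex, Trpm5, Hapln1 and Mab21l2 completed the 10 largest falls, but each lost its call without at least 2 of the 6 libraries.

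The contrast with E7 grafts of the same day showed which groups set the CD1dKOxE7 grafts apart from E7 skin as such. The comparisons of both donors with C57 share the same C57 libraries, so their values are given side by side and the direct contrast between the donors is the test. T cell genes had a median of 2.56 over C57 in CD1dKOxE7 grafts and 0.58 in E7 grafts, and 21 of 23 were higher in CD1dKOxE7 than in E7 grafts. Cytotoxic and NK genes had medians of 3.45 and 0.35, and 20 of 20 were higher. MHC class II genes had medians of 1.81 and -0.10, and 14 of 14 were higher. Interferon genes had medians of 2.66 and 1.59, and 33 of 45 were higher, between 26 and 41 when 1 library was left out. MHC class I genes had medians of 2.25 and 0.68, and 15 of 17 were higher. Macrophage and monocyte genes had medians of 0.28 and -1.05, and 16 of 24 were higher. Wound-associated genes had medians of 2.45 and 1.59, and 12 of 24 were higher, or 7 without CD1dKOxE7 replicate 3. In the other direction, cornified envelope genes had medians of -0.48 and 0.73, and 30 of 44 were lower in CD1dKOxE7 than in E7 grafts, among them all 11 Lce1 genes and none of the 6 Lce3 genes. Replication genes had medians of 0.72 and 1.20, and 39 of 53 were lower.

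Some of the largest direct differences are given for single genes. Ccl1, a chemokine of activated T cells and the ligand of CCR8, had 5.03, 7.61 and 9.68 CPM in CD1dKOxE7 grafts and 0, 0.109 and 0 CPM in E7 grafts (log2 difference 7.04 ± 0.52, adjusted p = 1.2e-06). Cd8a (5.26 ± 0.50) and Ubd (6.49 ± 0.89) were higher too. Nmu, the neuropeptide neuromedin U, was lower, with 1.04, 0.797 and 0.711 CPM in CD1dKOxE7 grafts, 17.7, 18.4 and 11.6 CPM in the E7 grafts and 6.62, 6.36 and 5.86 CPM in the C57 grafts (-4.18 ± 0.33 against E7, adjusted p = 1.47e-06). Spink7, a protease inhibitor of stratified epithelia, had 4.08, 8.32 and 11.9 CPM in CD1dKOxE7 grafts and 169, 137 and 70.5 CPM in E7 grafts (-3.98 ± 0.44, adjusted p = 1.75e-05, with its call lost in 1 alternative fit). The lane differs between these donors as well, and its part was not tested.

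**Figure D5:**
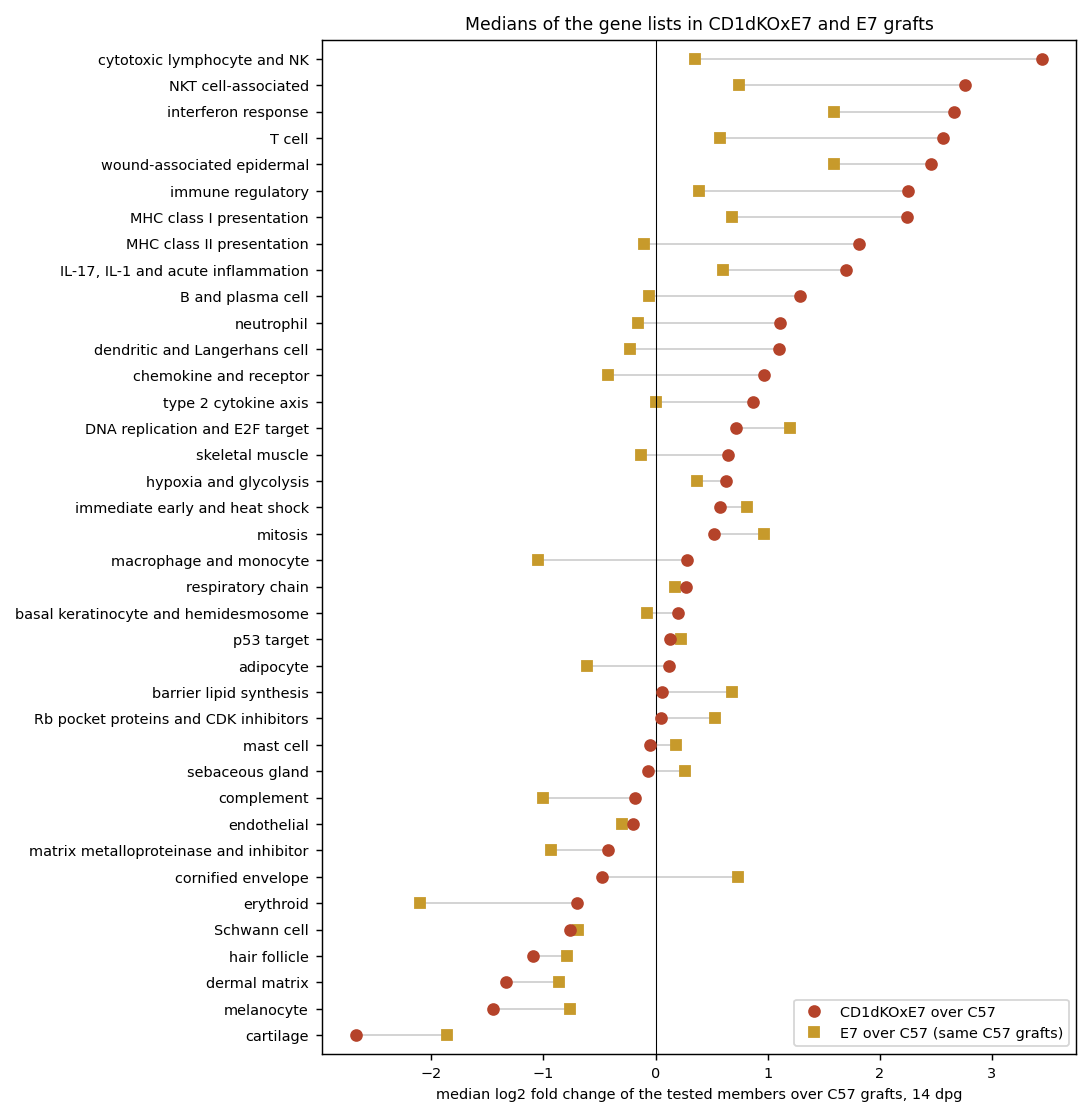
Median log2 fold change over C57 grafts at 14 dpg of each gene list, for CD1dKOxE7 grafts and for E7 grafts, which share the C57 libraries. The T cell, cytotoxic and MHC class II medians lie apart (2.56 and 0.58, 3.45 and 0.35, 1.81 and -0.10), and the cornified envelope medians lie on either side of 0.

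The difference between CD1dKOxE7 and C57 grafts was not the same at 28 dpg. In the contrast of the 28 dpg difference minus the 14 dpg difference, 1317 genes (8.14%) were higher and 794 (4.9%) lower. The count of genes that passed moved with single libraries. It was 2111 with all of them and 3946 without CD1dKOxE7 replicate 3 of 28 dpg. It was 1191 and 1196 without replicates 1 and 2 of that group, and 1275 without C57 replicate 1 of 14 dpg. The CD1dKOxE7 over C57 difference was higher at 28 dpg for 45 of 53 genes of the replication list, 33 of 34 of the mitosis list and 31 of 44 of the cornified envelope list, each by at least 28 genes whichever library was left out. For T cell genes it was lower at 28 dpg in 15 of 23 cases, 12 to 18 with a library left out. MHC class I genes had a lower one in 14 of 17 cases, or 9 without C57 replicate 1 of 14 dpg. Nmu turned, with a log2 difference between the days of 6.00 ± 0.49 (adjusted p = 1.58e-05) and means of 7.95 CPM in CD1dKOxE7 grafts and 0.832 CPM in C57 grafts at 28 dpg. Gzmb (-3.14 ± 0.60) and Lag3 (-2.72 ± 0.33) were among those with a lower difference at 28 dpg.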

How the data were processed

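Per the labels' protocols, RNA of whole frozen grafts was purified with Trizol and RNeasy columns and made into libraries with the TruSeq RNA v2 kit. The authors deposited whole-number read counts per Entrez gene and for the E7 transgene, not normalized, and 25275 of 27180 rows matched RefSeq genes. Per the submitters' processing notes, FastQC, Trimmomatic and bcl2fastq 1.8.4 were used and the build was mm10. The sources used here do not give the aligner, counter, annotation or strand. Overlapping genes on opposite strands and near-identical copies (Lce, Sprr2, Stfa, Klra, H2-Q, Gbp) are uncertain. The 1905 rows without a match held 0.92 to 1.236% of the counts of the 6 libraries.

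The 18 graft libraries, in 6 groups of donor and day, were fitted with edgeR 4.0.16 in R 4.3.3 (filterByExpr with a minimum count of 10 and a minimum total of 15, TMM, robust quasi-likelihood F test, Benjamini-Hochberg over 16189 genes, threshold 0.05). The fit was first tested on simulated counts. CPM values were counts over library totals scaled by the TMM factors. An SE is the log2 fold change over the square root of F. A group with no count was given the floor of 3 counts over the group. The least different replicates had a chi-square per degree of freedom of 3.776, so none was a repeat of another.

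Same-numbered CD1dKOxE7 and C57 libraries correlated in their deviations from the group means at 0.107, 0.117 and 0.186. All were over 0.1, but the labels say nothing of pairing, and CD1dKOxE7 replicate 1 reached 0.117 with C57 replicate 2. Between CD1dKOxE7 and E7 libraries the same numbers gave 0.29, -0.346 and -0.288, and CD1dKOxE7 replicate 3 reached 0.465 with E7 replicate 2. The numbers therefore need not mark pairs across all donors. The main fit did not treat the libraries as pairs, and fits with the replicate number as a block were run beside it.

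Members and gene lists were chosen with earlier results of these data known. The genes named were a panel (E7, Cd1d1, Cd1d2, Cdkn2a, Mki67, Ifng, Ido1, Arg1, Cd3e, Cd8a, Krt14), the 10 largest rises and falls among called genes of at least 1 CPM in the higher group with no overlap, up to 3 called members of each list by smallest adjusted p with the largest against the median, and the 5 largest differences each way against E7 and between days. Other list members show the spread of their list, and some genes that the rule names are not reported here. The alternatives tried were DESeq2 1.42.0, normalization by RLE or the upper quartile, no filter or a filter of 1 CPM in 3 libraries, a fold limit of 1 on the log2 scale, other sets of libraries in the fit, the replicate block and leaving out each library. Figures were drawn with Python 3.11.15 and matplotlib 3.10.9.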

Additional observations from a re-analysis of the deposited data

Results flagged for a closer look

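The difference between CD1dKOxE7 and C57 grafts changed with the day for 62 of the 149 named genes, by the test of the 28 dpg difference minus the 14 dpg difference (edgeR, adjusted p under 0.05). It was lower at 28 dpg for 37 of them and higher for 25. Over all 16189 genes 4.9% were lower and 8.14% higher, and the named genes include some picked for the largest day differences, so that the count of 62 is partly set by that choice. With a library left out, 46 to 61 of the 62 passed the threshold in the same direction, with 61 without CD1dKOxE7 replicate 3 of 28 dpg and 46 without its replicate 1 or 2 or without C57 replicate 1 of 14 dpg, and 39 passed in every such fit. The values below are these log2 differences between the days. A negative one means a CD1dKOxE7 over C57 difference that is lower at 28 dpg. Of the 62 genes, 23 lost their call in at least 1 fit with a library left out. With negative values these were Cxcl9, Gzma, Klrb1c, Cxcr6, Icos, Il2ra, Tnf, Csf3r, Cd83, Ccr2, Irf8, Il1rn, Dst, Tmem233 and Wfdc18. With positive values they were Krt2, Flg2, Aloxe3, Dlx3, Incenp, Pmaip1, Ier3 and Zmat3.

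Among lymphocyte genes the values were -3.14 for Gzmb, -1.69 for Gzma, -1.87 for Klrk1, -2.09 for Klrb1c, -2.72 for Lag3, -2.66 for Cd3d, -2.46 for Cd3e, -1.91 for Cxcr6, -0.92 for Icos and -1.25 for Il2ra. Among genes of antigen presentation and interferon response they were -2.81 for Cxcl9, -1.62 for H2-Ab1, -1.61 for H2-Eb1, -1.47 for H2-Aa, -0.95 for H2-K1, -1.13 for Tap1, -1.31 for Nlrc5 and -1.22 for Cd274. For other immune and vascular genes they were -1.53 for Tnf, -1.36 for Csf3r, -1.34 for Cd83, -1.20 for Ccr2, -1.06 for Irf8, -0.9996 for Cxcl16, -0.67 for Il1rn, -1.11 for C2, -2.70 for Sele, -1.36 for Icam1 and -0.85 for Flt1. Fas had a value of -1.45 and Dst, of hemidesmosomes, -0.39. All of these stood higher over C57 at 14 dpg except Dst.

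Skeletal muscle genes gave the most negative values, -6.24 for Mybpc2, -6.11 for Myh4, -5.99 for Mstn, -5.48 for Tmem233 and -4.94 for Pvalb, and Wfdc18 had -5.06. In CD1dKOxE7 replicate 2 of 14 dpg Myh4 stood at 558 CPM, above every other graft of that day. Without that library Tmem233 had a value of -4.20 and lost its call (edgeR, adjusted p = 0.144). Mybpc2, Myh4, Mstn and Pvalb kept their calls without it, and the sizes of their values in that fit are not given here.

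Positive values were found for cell cycle genes, 1.14 for Mcm3, 0.94 for Mcm4, 1.02 for Gins1, 1.09 for Birc5, 0.88 for Bub1b, 0.52 for Incenp, 1.48 for Mki67 and 0.83 for Rbl1, and for genes of the upper epidermis, 5.35 for Krt2, 3.63 for Krt16, 4.80 for Lce3d, 1.71 for Lce1c, 1.65 for Lce1l, 1.01 for Flg2, 3.30 for Sprr2h, 4.01 for Stfa2, 0.80 for Aloxe3, 1.19 for Dlx3 and 6.88 for Spink7. The others were 6.00 for Nmu, 6.12 for Scgb1b27, 1.49 for Il18, 1.29 for Pmaip1, 0.70 for Ier3 and 0.44 for Zmat3. Nmu had means of 0.851 CPM in CD1dKOxE7 and 6.28 CPM in C57 grafts at 14 dpg, and of 7.95 and 0.832 CPM at 28 dpg.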

How the results depend on the processing

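The main comparison gave 4874 to 5884 called genes with a library left out (6346 with all), 2470 to 2899 higher and 2404 to 2985 lower, and 5485 to 6989 under the other alternatives that keep the threshold on p alone. With a log2 fold change of at least 1 there were 2206 (1129 higher and 1077 lower), against E7 1489 (1119 and 370) and for the day difference 883 (432 and 451). With the replicate number as a block, 3153 genes were higher and 3183 lower, and the block ended the named-gene call of Pvalb alone. With the replicate block and only the groups compared in the fit, 1304 genes were lower than in E7 grafts and 834 were higher in the day difference. With only the groups compared and no block, the day difference had 1349 genes, 732 of them higher. With a library left out it had 1191 to 3946 genes, 702 to 2264 higher and 412 to 1682 lower, and the 3946 came without CD1dKOxE7 replicate 3 of 28 dpg. It gave 1191 without replicate 1 and 1196 without replicate 2 of that group, and 1275 without C57 replicate 1 of 14 dpg. The share of higher genes among those called in it was 62.4%, 56.6% with RLE and 51.9% with upper quartile normalization. No named gene reversed in any alternative. The cause of these shifts was not tested. Depth limits genes under about 1 CPM, where 3 counts in a library are worth up to 0.442 CPM.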

Other observations

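Families taken by the start of the symbol, after values were seen, are given beside the lists. Over all tested genes 19.1% rose and 20.1% fell. How far the family counts depend on single libraries was not tested. Of 24 Trbv rows, the variable segments of the T cell receptor beta chain, 6 were high enough to be tested, and all 6 rose in CD1dKOxE7 over C57 grafts at 14 dpg (median log2 fold change 4.91). Guanylate-binding protein genes (Gbp) rose in 11 of 11 cases (median 4.07), Klra receptor genes of NK cells in 11 of 11 (median 2.93) and Schlafen genes (Slfn) in 7 of 8 (median 1.85). Skint genes fell in 7 of 11 cases and rose in 1 (median -1.34). Hair keratin-associated protein genes (Krtap) fell in 5 of 53 cases, a smaller share than over all genes, and rose in none (median -1.11). Proteasome genes (Psm) rose in 34 of 48 cases and fell in 1 (median 0.31). Among ribosomal protein genes, 2 of 29 Rps genes rose and 1 fell (median 0.07), and 3 of 47 Rpl genes rose and none fell (median 0.06). Copies within the Trbv, Gbp, Klra and Krtap families are alike, so that counts of single members are uncertain.

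A single row followed the CD1dKOxE7 label. Ccnb1ip1 (chromosome 14, 50789249 to 50795728 of GRCm38) had 46, 21 and 43 counts in CD1dKOxE7 grafts at 14 dpg and 35, 20 and 21 at 28 dpg, while the other 18 libraries held 2 counts in all, with 16 of them at 0. It was the 1 row of 27180 with at least 3 counts in every CD1dKOxE7 library and at most 1 in each other library, and no row had the reverse. These limits were chosen after values were seen.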
